A study of Mus musculus with 10 samples.

Results

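The 10 genes described here encode the 5 subunits of the transcription factor NF-kB (Nfkb1, Nfkb2, Rela, Relb and Rel) and 5 proteins that restrain its activity or that it induces (Nfkbia, Nfkbiz, Nfkbie, Tnfaip3 and Ier3). They were chosen by name, with earlier results of these data known, and each was read from 1 principal coding transcript. All 10 were found, out of 26206 genes with such a transcript, and all 10 were among the 12990 genes that reached 1 RPKM in at least 2 of the 10 libraries. RPKM is the number of reads scaled by transcript length and by library depth. Levels compared between genes therefore depend on the transcript read for each.

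The libraries are RNA-seq of ER-Hoxa9-Lys-GFP cells of the C57BL/6 strain, kept in serum-containing RPMI with SCF (stem cell factor) from conditioned medium. As background, ER-Hoxa9 joins the homeobox factor Hoxa9 to an estrogen receptor domain, so that it works only in the presence of estradiol (E2) and then keeps the cells immature, and loss of E2 lets them differentiate along the myeloid lineage. Every group carried the same construct and came from the same culture system. The untreated group (0 h) kept E2 throughout. In the 24 h, 40 h and 72 h groups E2 was withdrawn for that time and then added back for 96, 80 and 48 h, so these libraries show cells after E2 had returned. In the 120 h group E2 was withdrawn for 120 h with no add-back. Each group had 2 libraries. The labels do not say that the 2 were separate cultures, so the p-values below are measured against the spread of these libraries alone, and that spread may be technical. They also do not say how many clones the line represents.

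As background, NF-kB proteins bind DNA as dimers. RelA, RelB and c-Rel, the products of Rela, Relb and Rel, carry transactivation domains. The products of Nfkb1 and Nfkb2 are precursors, p105 and p100, which are processed to the DNA-binding p50 and p52. In resting cells IkB proteins such as IkBα (Nfkbia) and IkBε (Nfkbie) hold the dimers in the cytoplasm, and signals from receptors for TNF, IL-1 and microbial products lead to their phosphorylation, ubiquitination and breakdown. Several of the genes that NF-kB then activates encode its own inhibitors, which forms a feedback loop, and in myeloid cells the pathway is best known for driving cytokine genes.

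The feedback genes are known for NF-kB sites close to their start, so the matches to the NF-kB consensus are shown here. The 250 bases before each annotated start were searched on both strands in RefSeq promoter windows of build GRCm38.p6. Windows were present for 7 of the 10 genes and a match was found for 6 of these 7 (Nfkb2, Rel, Nfkbia, Nfkbie, Tnfaip3 and Ier3). Rela had a window with no match. Of the 27025 genes with a window, 4.46% held a match, and of the 8860 tested genes with a window 5.2% did. A match describes the letters only and does not show binding. The 30-base segments below run 5′ to 3′ on the strand of the gene, with the matched bases, which may join overlapping matches, in capitals.
Nfkbia, chr12:55492657-55492686, minus strand: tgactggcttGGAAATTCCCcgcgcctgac
Nfkbie, chr17:45555584-45555613, plus strand: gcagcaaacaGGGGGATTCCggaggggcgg
Tnfaip3, chr10:19015516-19015545, minus strand: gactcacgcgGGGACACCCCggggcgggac
Tnfaip3, chr10:19015411-19015440, minus strand: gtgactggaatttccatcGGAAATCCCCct
Ier3, chr17:35821611-35821640, plus strand: tgcgaagggcGGAGTTCCCCccggcccggc
Rel, chr11:23771042-23771071, minus strand: cgtaagcagcGGGAAATCCCCccccctccc
Nfkb2, the start farthest upstream, chr19:46304688-46304717, plus strand: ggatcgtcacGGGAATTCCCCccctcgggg
Nfkb2, the start farthest upstream, chr19:46304707-46304736, plus strand: ccccctcggggggccgaaaGGGGCTTTCCc
Nfkb2, the middle start, chr19:46305449-46305478, plus strand: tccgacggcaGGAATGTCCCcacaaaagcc
Nfkb2, the start farthest downstream, chr19:46305695-46305724, plus strand: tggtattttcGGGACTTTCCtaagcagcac
The matched bases of Nfkbia begin 29 bases before its start. The nearest of those of Tnfaip3 begin 12 bases before, those of Nfkbie 106, and those of Rel and Ier3 92 each. Nfkb2 held matches before 3 annotated starts.

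The recovered depth was 173615000 to 204386000 reads per library. The targeted factor is a protein fusion whose hormone, not its RNA, was manipulated, so no transcript level checks the labels directly. Markers of progenitors, summed, were at 1576 and 1549 RPKM untreated, 634 and 674 at 72 h, and 114 and 81.6 at 120 h. Those of granulocytes were at 2054 and 2446, 5011 and 5078, and 21140 and 20230. Not every granulocyte marker rose with the sum. Of 9 that reached 1 RPKM in 2 libraries without the 120 h group, 8 were higher at 120 h than untreated and 1 lower. Against 72 h, 7 were higher and 2 lower (limma, adjusted p under 0.05). Of all genes passing in the same way, 25% and 54.9% were called against untreated, and 23.9% and 53.1% against 72 h. Monocyte and macrophage markers were at 337 and 354, 1039 and 1113, and 1903 and 1804, with Mrc1 under 1 RPKM in all libraries. Mast cell, basophil and eosinophil markers were at 187 and 212 untreated, 1533 and 1353 at 72 h, of which Prg2 made up 1484 and 1306, and 491 and 265 at 120 h. Of the 8 erythroid and megakaryocyte markers 6 were under 1 RPKM throughout, and of the 8 genes listed for dendritic cells 4 were (Cd209a, Siglech, Batf3 and Xcr1). In such bulk samples fewer cells of a type and less RNA per cell cannot be told apart.

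With E2 present, the canonical subunits were the most abundant members. Rela, which encodes the main transactivating subunit, had 28.7 and 30.3 RPKM. Nfkb1, which encodes p105 and p50, had 28.6 and 28.8, so these 2 genes overlapped as read here. Another principal coding transcript of Nfkb1 had 34.3 and 34.7 RPKM, above both Rela values, so the overlap depends on the transcript read. Nfkb2, the gene of p100 and p52, followed with 13.5 and 12.4 RPKM. Ier3, an early response gene linked to cell survival, had 11.2 and 12.3 and overlapped Nfkbia, at 11.6 and 11.8. The remaining 5 genes lay below 4 RPKM in both untreated libraries. Of these, Nfkbie was at 3.48 and 3.20 and Relb at 2.59 and 2.71, while Nfkbiz and Rel overlapped each other at 1.82 to 2.04 and 1.68 to 1.90. Tnfaip3, which encodes the ubiquitin-editing enzyme A20, was lowest at 1.11 and 1.45 RPKM.

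**Figure D1:**
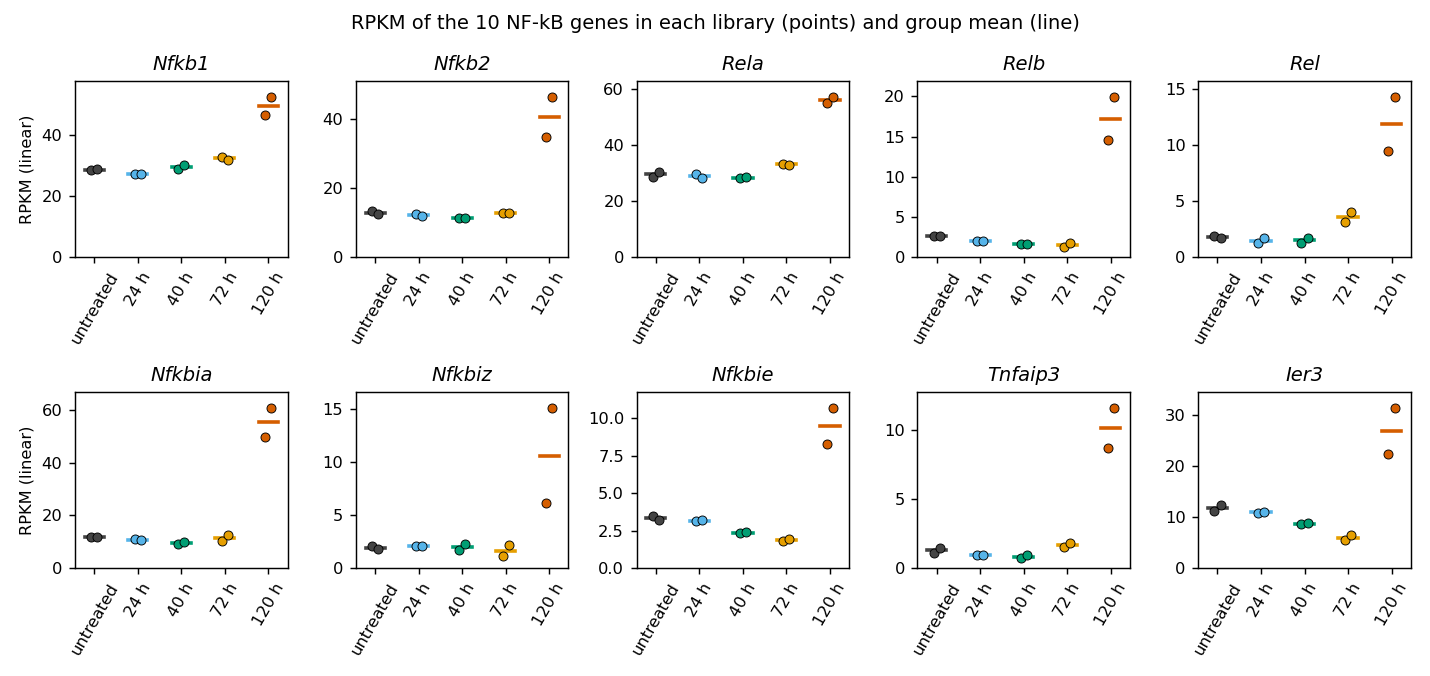
RPKM (linear, from 0) of the 10 genes in every library, 1 panel per gene with its own scale, points for the 2 libraries of each group and bars at the group mean. In every panel both 120 h libraries lie above both untreated ones, as in 31.4% of all tested genes. Nfkbiz shows the widest relative gap between its 2 libraries at 120 h, 6.10 and 15.1.

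All 10 genes rose after 120 h without E2, and in each both 120 h libraries lay above both untreated ones, as in 31.4% of all tested genes. The change was smallest for Nfkb1 and Rela, intermediate for Ier3, Nfkbie and Nfkb2, and larger for Nfkbiz, Nfkbia, Rel, Tnfaip3 and Relb. Differences are given as log2(RPKM + 1), which understates changes of genes with low levels, from limma fitted over all 10 libraries, with Benjamini-Hochberg adjustment over the 12990 genes and an adjusted p under 0.05 as a call. In the comparison of 120 h with untreated cells 27.5% of all tested genes were called higher and 52.7% lower, against 10 and 0 of these 10 genes. As the genes were chosen with earlier results known, this contrast is a description and not an independent test. Their median difference was 1.72, beside -0.36 over all tested genes. With libraries scaled by the median of ratios the median over all genes moved from -0.36 to 0.00, 5121 genes were called higher and 5015 lower in place of 3578 and 6850, and all 10 genes were still called higher.

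Of the subunits, Relb, whose product is the partner of p52 in the non-canonical pathway, was at 2.59 and 2.71 RPKM untreated and at 14.5 and 19.9 at 120 h. Its log2 difference was 2.31 (SE 0.14, adjusted p = 1.84e-06 by limma). Rel, which encodes c-Rel, a subunit prominent in haematopoietic cells, went from 1.90 and 1.68 RPKM to 9.47 and 14.3, a log2 difference of 2.18 (SE 0.19, adjusted p = 1.41e-05 by limma). In mean RPKM these were ratios of 6.51 and 6.64, the largest of the 5 subunits.

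Nfkb2 was at 13.5 and 12.4 RPKM untreated and at 34.9 and 46.3 at 120 h, with a log2 difference of 1.57 (SE 0.12, adjusted p = 6.39e-06 by limma). Rela stood at 54.9 and 57.0 RPKM at 120 h, a difference of 0.90 (SE 0.07). Nfkb1 stood at 46.5 and 52.5, a difference of 0.76 (SE 0.08). Rela and Nfkb1, already the highest, thus had the smallest ratios, 1.90 and 1.72. When each gene was read from its transcript with the highest mean RPKM, which for Nfkb1 is a short transcript of its 3′ exons, its difference was 0.37 (adjusted p = 0.00625 by limma).

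Among the inhibitors, Nfkbia, which encodes IkBα, was at 11.6 and 11.8 RPKM untreated and at 49.9 and 60.9 at 120 h. Its log2 difference was 2.14 (SE 0.12, adjusted p = 1.19e-06 by limma). Tnfaip3 rose from 1.11 and 1.45 to 8.74 and 11.6 RPKM, a difference of 2.29 (SE 0.14) and the largest ratio of mean RPKM among the 10 genes, 7.95. Its product removes and adds ubiquitin chains on signalling proteins upstream of the IkB kinase.

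Nfkbie, the gene of IkBε, went from 3.48 and 3.20 RPKM to 8.27 and 10.7, a log2 difference of 1.27 (SE 0.11). Ier3 went from 11.2 and 12.3 to 22.3 and 31.4, a difference of 1.11 (SE 0.15, adjusted p = 1.43e-04 by limma). Nfkbiz, which encodes the nuclear protein IkBζ, went from 2.04 and 1.82 to 6.10 and 15.1, a difference of 1.87 (SE 0.35, adjusted p = 0.0011 by limma). The 2 libraries at 120 h were thus far apart for Nfkbiz, and its difference was 2.46 without 120 h replicate 1 and 1.28 without 120 h replicate 2.

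**Figure D2:**
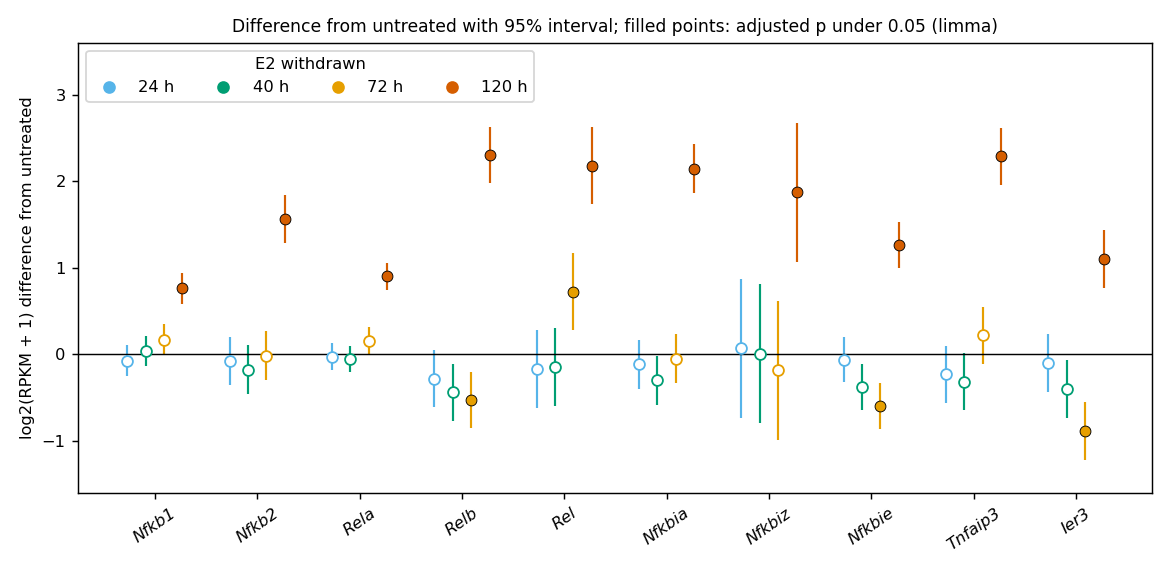
Difference from untreated cells in log2(RPKM + 1) for the 10 genes and 4 withdrawal groups, with 95% confidence intervals from limma and filled points where the adjusted p was under 0.05. At 120 h all 10 points are filled and lie between 0.76 and 2.31, while at 72 h Relb, Nfkbie and Ier3 lie below 0 and Rel above it.

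Replicate 2 of the 120 h group was above replicate 1 for all 10 genes, by 0.05 (Rela) to 1.18 (Nfkbiz) on the log2 scale. Over all tested genes 43.8% were higher in replicate 2, with a median of -0.05. This share spans genes called higher at 120 h (27.5%) and genes called lower (52.7%), while all 10 members were called higher. On the first principal component of all tested genes, the axis of largest spread (83.7%), replicates 1 and 2 lay at 110 and 133. The untreated libraries lay at -43.6 and -43.5 there, so replicate 2 was farther from them. The sum of a list made for dendritic cells also differed between the 120 h libraries, at 275 RPKM in replicate 1 and 447 in replicate 2. It was 8.37 to 9.29 untreated. The sum rests on 4 of the 8 listed genes, Flt3l, Itgax, H2-Aa and Cd74, as the other 4 were under 1 RPKM throughout. It does not by itself identify dendritic cells. H2-Aa reached 1 RPKM in 2 libraries only through the 120 h group. Of the other 3 tested, 2 were called higher at 120 h and 1 lower. A list of handling and stress response genes differed as well, at 385 and 540 RPKM (191 and 192 untreated). Of its 10 tested genes, Atf3 reached 1 RPKM in 2 libraries only through the 120 h group. Of the other 9, 7 were called higher at 120 h and 2 lower, beside 25% and 54.9% of all genes passing in the same way. The list includes the early response genes Fos and Egr1, with differences of 4.60 and 3.31 at 120 h. The part of these genes, and of the gap between the 2 libraries over all genes, in the NF-kB result was not tested. With either 120 h library left out, all 10 genes were still called higher.

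Because the subunits did not rise in proportion, the composition of the family changed. The summed level of the 5 subunits was 75.2 and 75.9 RPKM untreated, 83.4 and 83.4 at 72 h, and 160.2 and 189.9 at 120 h. Relb made up 3.44% and 3.57% of that sum untreated, 1.59% and 2.10% at 72 h, and 9.07% and 10.5% at 120 h. Rel made up 2.53% and 2.21% untreated, 3.81% and 4.88% at 72 h, and 5.91% and 7.51% at 120 h. The shares of these 2 genes therefore moved in opposite directions between untreated and 72 h libraries and in the same direction between 72 h and 120 h, without overlap between groups. The share of Nfkb1 fell from 38.0% in both untreated libraries to 29.0% and 27.6% at 120 h, and that of Rela was 38.2% and 39.9% untreated and 34.2% and 30.0% at 120 h. The share of Nfkb2 was 17.9% and 16.3% untreated and 21.8% and 24.4% at 120 h. These are shares of RNA, and no test was made of them. They also depend on the transcript read for Nfkb1. Its other principal coding transcript had 34.3 and 34.7 RPKM untreated and 57.6 and 65.2 at 120 h.

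**Figure D3:**
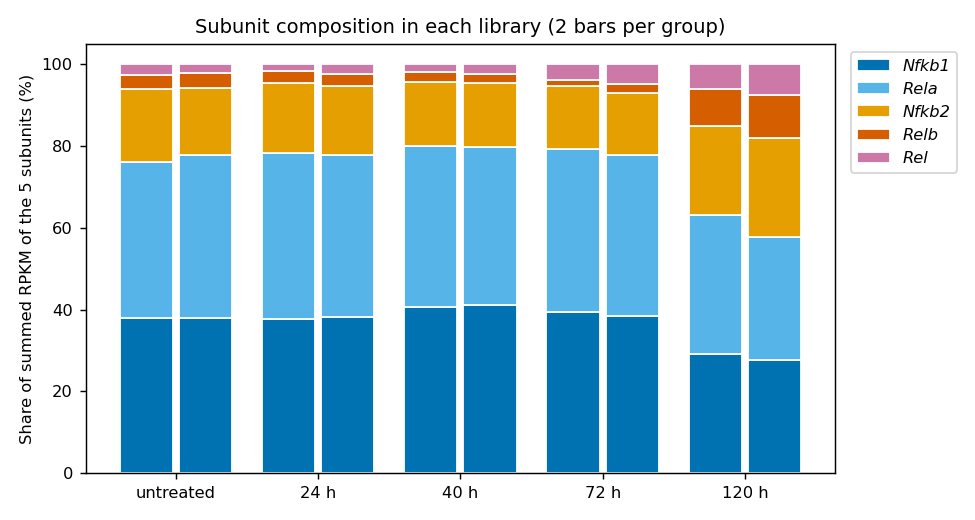
Share of the summed RPKM of the 5 subunit genes (%) held by each gene, 1 bar per library and 2 bars per group. Relb and Rel together form a narrow band up to 72 h and a broader one at 120 h, where Relb reaches 9.07% and 10.5%.

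The level of Nfkbia relative to Rela describes inhibitor RNA per RNA of its main partner. The ratio was 0.405 and 0.389 untreated, 0.303 and 0.384 at 72 h, and 0.910 and 1.07 at 120 h, so only the 120 h libraries lay well above the others. For Relb over Rel the ratio was 1.36 and 1.61 untreated, 0.418 and 0.430 at 72 h, and 1.53 and 1.40 at 120 h. Here the 72 h libraries stood apart, below the others, and the 120 h libraries overlapped the untreated ones.

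After 72 h of withdrawal and 48 h of renewed E2, the genes did not move together. Rel was higher than in untreated cells, Relb, Nfkbie and Ier3 were lower, and the other 6 did not pass the test. In this comparison 21.5% of all tested genes were called higher and 22.3% lower, so 1 and 3 of 10 genes are not far from the background. The median over the 10 genes was -0.03, beside 0.02 over all tested genes.

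Ier3 had 11.2 and 12.3 RPKM untreated and 5.50 and 6.37 at 72 h, a log2 difference of -0.88 (SE 0.15, adjusted p = 0.00176 by limma). Nfkbie had 3.48 and 3.20 untreated and 1.79 and 1.97 at 72 h, a difference of -0.59 (SE 0.11, adjusted p = 0.00389 by limma). Relb had 2.59 and 2.71 untreated and 1.33 and 1.75 at 72 h, a difference of -0.53 (SE 0.14, adjusted p = 0.0179 by limma). For these 3 genes both 72 h libraries lay below both untreated ones, as in 39.4% of all tested genes. Rel moved the other way, from 1.90 and 1.68 to 3.18 and 4.07 RPKM, a difference of 0.73 (SE 0.19, adjusted p = 0.0171 by limma). The calls of Relb and Rel did not hold without untreated replicate 1 or without untreated replicate 2. The Relb call also did not hold without 72 h replicate 1, nor the Rel call without 72 h replicate 2, and neither held with no filter on low values.

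Of the 6 genes not called at 72 h, Nfkb1 (32.8 and 32.0 RPKM) and Rela (33.3 and 32.8) lay above both untreated libraries, with differences of 0.17 (95% interval -0.01 to 0.35) and 0.16 (0.01 to 0.32). Tnfaip3 (1.51 and 1.81) also lay above, with 0.22 (-0.11 to 0.55). Of all tested genes 41.4% lay above in both libraries. Nfkb1 and Rela were each called higher in 5 alternatives, for example without the 120 h group, while the difference of Nfkb1 was 0.000154 when read from the transcript with the highest mean RPKM. Nfkb2 (12.8 and 12.7), Nfkbia (10.1 and 12.6) and Nfkbiz (1.09 and 2.17) overlapped the untreated libraries. Their intervals were -0.29 to 0.27, -0.33 to 0.23 and -0.98 to 0.62, so the interval of Nfkbiz leaves room for changes in either direction.

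Relb, Nfkbie and Ier3 were thus lower than untreated at 72 h and higher at 120 h. This combination of calls held for 3 of the 10 genes and for 3.26% of all tested genes (423). Both comparisons share the untreated libraries. Between 120 h and 72 h directly, all 10 genes were called higher, with no overlap (29.5% of all tested genes lay above in both libraries), in a comparison in which 26.4% of all tested genes were called higher and 51% lower. The log2 differences ran from 0.59 for Nfkb1 and 0.74 for Rela to 2.83 for Relb (SE 0.14, adjusted p = 1.26e-06 by limma). Nfkbie differed by 1.86 and Ier3 by 1.99, with Nfkbia at 2.19, Tnfaip3 at 2.06, Nfkbiz at 2.06, Nfkb2 at 1.58 and Rel at 1.46. The median over all tested genes was -0.32, and it was 0.03 under median-of-ratios scaling, which called 5021 genes higher and 4318 lower in place of 3432 and 6628.

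Between 72 h and 40 h, Rel, Tnfaip3 and Rela were called higher and Ier3 lower, in a comparison with 13.9% of all tested genes called higher and 13.8% lower. Rel had 1.31 and 1.75 RPKM at 40 h and 3.18 and 4.07 at 72 h, a log2 difference of 0.87 (SE 0.19, adjusted p = 0.012 by limma). Tnfaip3 had 0.725 and 0.940 at 40 h and 1.51 and 1.81 at 72 h, a difference of 0.54 (SE 0.14, adjusted p = 0.0254 by limma). In both genes the 72 h libraries lay above the 40 h ones, as in 37.5% of all tested genes. Rela differed by 0.21 (SE 0.07, adjusted p = 0.0471 by limma) and Ier3 by -0.49 (SE 0.15, adjusted p = 0.0393 by limma). These calls were close to the threshold: none of the 4 held without 40 h replicate 1 or without 72 h replicate 2, and 1 held without 40 h replicate 2. Those of Rela and Ier3 were lost in each of the 8 settings that left out 1 library of the untreated, 24 h, 40 h or 72 h groups. With limma voom on the recovered reads, those of Rel and Tnfaip3 held.

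After 24 h or 40 h of withdrawal followed by add-back, no gene of the 10 was called. At 24 h no gene of the 12990 was called either (0%), 364 had an unadjusted p under 0.05, and limma voom also called 0. The differences of the 10 genes lay between -0.28 (Relb) and 0.07 (Nfkbiz), with a median of -0.09, and 0 of the 10 had an unadjusted p under 0.05. At 40 h 4.3% of all tested genes were called, 0.931% higher and 3.36% lower, and 18.7% had an unadjusted p under 0.05. The differences of the 10 genes lay between -0.44 (Relb) and 0.04 (Nfkb1), with a median of -0.24 beside -0.01 over all genes, and 4 of the 10 had an unadjusted p under 0.05 while limma voom called 0.

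Those 4 at 40 h were Relb, at 1.71 and 1.68 RPKM, Nfkbie, at 2.32 and 2.38, Ier3, at 8.56 and 8.83, and Nfkbia, at 8.97 and 9.69. Both 40 h libraries lay below both untreated ones in these 4 and in 7 of the 10 genes in all, beside 33.3% of all tested genes. Without the 120 h group, or without either of its libraries, Relb (-0.44), Nfkbie (-0.37) and Ier3 (-0.40) were called lower at 40 h. Without that group the calls over all genes at 40 h also rose, from 558 to 1867, of which 1217 were lower. In the group means, Relb, Nfkbie and Ier3 had the order 120 h, untreated, 24 h, 40 h and 72 h from highest to lowest. For Nfkbie and Ier3 no neighbouring groups in this order overlapped, although untreated and 24 h libraries came as close as 3.20 and 3.18 RPKM for Nfkbie and were not called different for either gene. The order was read from the values, and 1.72% of all tested genes showed the same order with no overlap. For Relb the 40 h and 72 h libraries overlapped.

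Nfkb1 has annotated transcripts that cover only its 5′ or only its 3′ exons, and these were compared after their values had been seen. The gene lies on the minus strand of chromosome 3 (chr3:135584655-135691547, GRCm38). The 5′ transcript, ENSMUST00000138602 (chr3:135610590-135691547), has 12 exons and 3383 bases, of which 1825 are not exonic in the full-length transcript, because it retains intron sequence. The 3′ transcript, ENSMUST00000129428 (chr3:135584882-135608483), has 13 exons and 2520 bases, of which 188 are not. Of the 971 codons of the full-length transcript, 352 lie in the 5′ part and 618 in the 3′ part. As background, the N-terminal part of p105 is the source of p50, and the C-terminal part holds IkB-like ankyrin repeats.

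The 5′ transcript had 7.66 and 7.87 RPKM untreated, 13.3 and 14.1 at 72 h, and 29.7 and 34.9 at 120 h. The 3′ transcript had 40.1 and 40.6 untreated, 42.7 and 40.8 at 72 h, and 52.3 and 58.3 at 120 h. The 5′ to 3′ ratio was thus 0.191 and 0.194 untreated, 0.310 and 0.347 at 72 h, and 0.568 and 0.599 at 120 h. Over all genes with such a pair the median ratio was 0.678 and 0.667 untreated and 0.775 and 0.757 at 120 h, so the ratio of Nfkb1 was below the median in every library and the median moved up as well. The 24 h ratios, 0.175 and 0.177, lay just below both untreated ones, and the 40 h ratios, 0.179 and 0.199, overlapped them. Neither group was called different from untreated.

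The log2 ratio, tested by limma over 3040 genes with a pair of such transcripts, rose by 1.48 from untreated to 120 h (SE 0.08, adjusted p = 1.63e-06), in a comparison with 22.5% of genes called up and a median difference over genes of 0.14. It rose by 0.70 from untreated to 72 h (adjusted p = 0.00105 by limma, 13.5% called up, median over genes 0.13). The part of this general shift in the result for Nfkb1 was not tested. From 40 h to 72 h it rose by 0.73 (adjusted p = 0.00124 by limma, 1.71% called up), and from 72 h to 120 h by 0.78 (adjusted p = 2.82e-04 by limma, 3.62% called up). At 120 h against untreated 10 genes, with Nfkb1 among them, had a difference at least as high. The value of the 5′ transcript alone does not show how its reads divide between exons and retained intron. The full-length transcript, without that intron sequence, had 28.6 and 28.8 RPKM untreated and 46.5 and 52.5 at 120 h. How the reads divide was not tested.

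**Figure D4:**
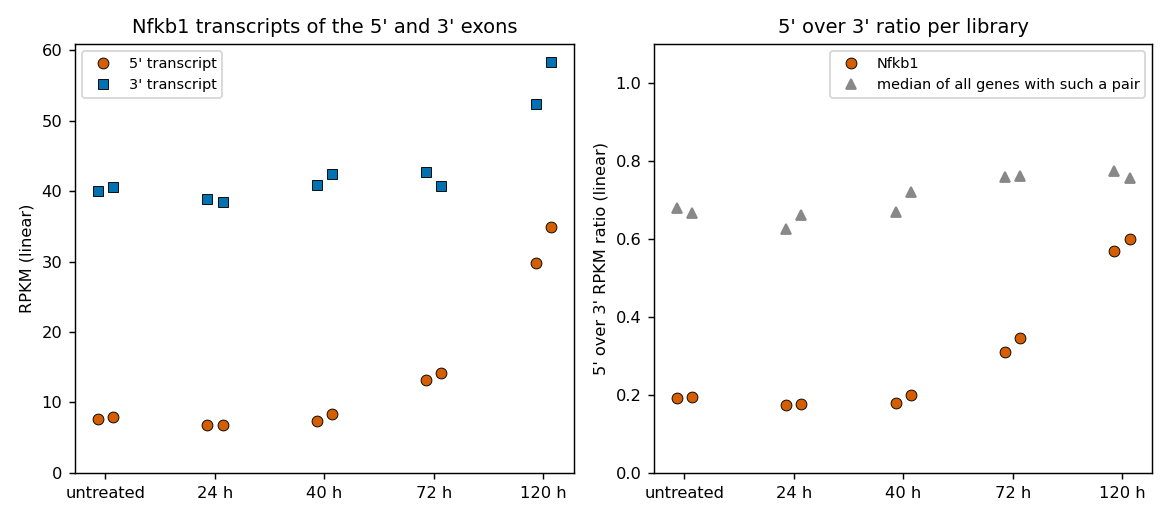
Left, RPKM (linear) of the Nfkb1 transcripts that cover its 5′ exons (circles) and its 3′ exons (squares) in each library. Right, their ratio per library beside the median ratio of all genes with such a pair (triangles), with Nfkb1 rising from 0.191 and 0.194 untreated to 0.568 and 0.599 at 120 h and the median from 0.678 and 0.667 to 0.775 and 0.757.

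Other genes of the pathway, from lists made by role, numbered 102, of which 101 were in the files and 90 were tested. Of these, 10 reached 1 RPKM in 2 libraries only through the 120 h group and so had to be high there (Il1b, Ltb, Tnfsf13b, Il1r1, Map3k8, Tnip3, Cxcl2, Ccl5, Ptgs2 and Saa3). Counts at 120 h are therefore given over the other 80, and all 10 NF-kB subunit and inhibitor genes passed without that group. At 120 h 56 of the 80 were called higher and 12 lower, beside 25% and 54.9% of the 12479 genes that passed in the same way, with a median log2 difference of 0.78. Median-of-ratios scaling, counted over all 90, gave 78 higher and 7 lower in place of 66 and 12. Over all 90, 38 were called higher and 15 lower at 72 h, beside 21.5% and 22.3% of all tested genes. At 40 h 4 were higher and 5 lower, beside 0.931% and 3.36%, and at 24 h none was called. Between 72 h and 40 h 31 of the 90 were higher and 12 lower, beside 13.9% and 13.8%. As percentages of the 90, the lower calls were 16.7%, 5.56% and 13.3%, not far from those of all genes. Of the granulocyte markers 0 of 10 were called at 24 h, 3 were higher at 40 h and 8 at 72 h, with 0 lower. Of the monocyte and macrophage markers 0 of 9 were called at 24 h. At 40 h 3 of these 9 were higher and 1 lower, and at 72 h 8 were higher and 1 lower. The part of that shift in these counts was not tested.

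Of the 6 tested ligand genes 3 passed without the 120 h group, and these 3 were called higher at 120 h. Among all genes passing in the same way 25% were called higher there and 54.9% lower. Il1b, which encodes the cytokine IL-1β and was not among them, was at 0.198 and 0.205 RPKM untreated and at 63.7 and 141 at 120 h, a log2 difference of 6.32 (SE 0.39). Tnf, the gene of TNF, differed by 3.28. Ltb and Tnfsf13b, genes of ligands of the non-canonical pathway, differed by 3.09 and 2.86 and also passed only through the 120 h group. None of these 4 was called at 72 h. Tnfsf13, a ligand gene of the same family, was called higher at 72 h against 40 h (0.96).

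Of the 10 receptor genes that passed without the 120 h group 8 were called higher at 120 h and 1 lower. The shares over all genes passing in the same way were 25% and 54.9%. Cd14, the co-receptor for lipopolysaccharide, differed by 7.46 at 120 h and by 3.80 at 72 h. Tlr2, a receptor for bacterial lipoproteins, differed by 6.20 and 1.72, Tlr9 by 3.65 and 0.95, and Tnfrsf1b, the second TNF receptor, by 3.56 and 1.09. Tlr4, the lipopolysaccharide receptor, was the one of these already called at 40 h together with Cd14, with differences of 1.78 and 0.91. It was at 1.09 and 1.09 RPKM untreated, 6.58 and 5.79 at 40 h, and 24.0 and 24.6 at 72 h. Il1rap, an IL-1 receptor subunit, was not called at 120 h (0.20).

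Of the 22 adaptor and ubiquitin ligase genes 13 were called higher and 4 lower at 120 h, with a median of 0.54. All 22 passed without the 120 h group, and the shares over all genes passing in this way were 25% and 54.9%. Myd88, the adaptor of IL-1 and Toll-like receptors, differed by 2.16 and Birc3, a ubiquitin ligase, by 2.00. Malt1 differed by 1.42 and Irak4 by 1.11. Traf3, which restrains the non-canonical pathway, and Ripk1 were called higher at 72 h against 40 h, by 0.67 and 0.51. Irak1 (0.02) and Traf6 (0.11) were not called at 120 h. Those lower at 120 h included Btrc (-0.85), which encodes a ubiquitin ligase subunit that recognises phosphorylated IkB. It is named after its value was seen.

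Of the 10 kinase genes that passed without the 120 h group 8 were called higher and 1 lower, with a median of 0.44. The shares over all genes passing in the same way were 25% and 54.9%. Ikbke, an IkB kinase-related gene, differed by 3.03, and Map3k8, which passed only through the 120 h group, by 2.54. Map3k14, which encodes NIK, the kinase of the non-canonical pathway, differed by 1.38 and Tbk1 by 0.59. Chuk, the gene of IKKα, differed by 0.66 at 72 h and 0.45 at 120 h. Map3k7, the gene of TAK1, was not called at 120 h (0.06).

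Of the 16 further IkB family and inhibitor genes that passed without the 120 h group 8 were called higher at 120 h and 5 lower. The shares over all genes passing in the same way were 25% and 54.9%. Bcl3, the gene of an atypical nuclear IkB protein, differed by 2.90 and Nfkbid, of another, by 2.33. Tnip3, which encodes a partner of A20 and passed only through the 120 h group, differed by 3.42. Nfkbib, the gene of IkBβ, was not called (0.18), so that the 3 genes of the classical IkB proteins had differences of 2.14, 1.27 and 0.18. The test of those differences against each other was not made. Otulin, a deubiquitinase gene, was also not called (-0.02). Trib3, a pseudokinase gene, fell by 2.89.

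Of the 19 target genes that passed without the 120 h group 16 were called higher at 120 h and 1, Il6 (-1.45), lower. The shares over all genes passing in the same way were 25% and 54.9%. Slfn2 differed by 7.47 and Lcn2, which encodes an iron-siderophore binding protein of neutrophil granules, by 6.54. Il1rn, the gene of the IL-1 receptor antagonist, differed by 5.51 and the chemokine gene Cxcl10 by 4.58. At 72 h the list was split over its 23 tested genes, with 12 called higher, 7 lower and 4 not called. Of all tested genes 21.5% were called higher and 22.3% lower there. Ccl3 was higher by 1.98, and Fth1, the ferritin heavy chain gene, and Ccl9 were lower by log2 differences of -1.65 and -0.69. Fth1 and Ccl9 were not called at 120 h against untreated (0.09 and -0.09). Il6 is named after its value was seen.

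**Figure D5:**
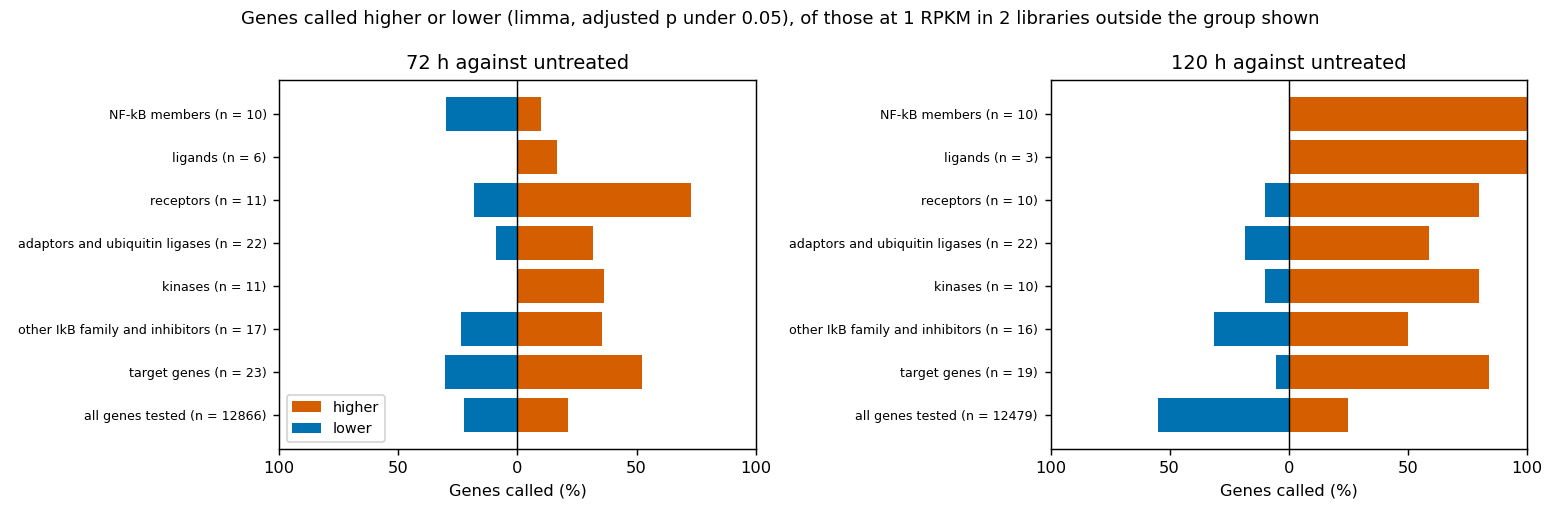
Percentage of genes in each list called higher (to the right) or lower (to the left) by limma, among genes that reached 1 RPKM in 2 libraries outside the group shown, whose number stands beside the list name. At 120 h 84.2% of 19 target genes and 3 of 3 ligand genes are called higher, beside 25% of all genes that passed in the same way.

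The genes whose pattern over the 8 withdrawn libraries was closest to that of each member were taken as a description, by the root mean square gap between differences from untreated in log2(RPKM + 1), among 8652 genes. For Rela they were Zdhhc7 (0.04) and Rnf166 (0.05), and for Nfkb1 Sumf1 (0.06) and Scarb2 (0.06). Nfkb2 was closest to Plxnd1 (0.07) and Abca3 (0.08), and Nfkbia to Rassf4 (0.07) and Rara (0.10). The lower genes at 72 h had other neighbours, with Ier3 closest to Nab2 (0.07) and Parp9 (0.09), Nfkbie to Abtb1 (0.08) and Mapk3 (0.09), and Relb to Fcrl1 (0.12) and Lpcat2 (0.13). Rel was closest to Lmtk2 (0.11) and Susd6 (0.13), Tnfaip3 to P2rx4 (0.08) and Aldh3a2 (0.10), and Nfkbiz to Helz2 (0.20) and Stat2 (0.22). No gene was among the 2 closest to more than 1 of the 10. Within 0.25 lay 726 genes for Nfkb1 and 595 for Rela but 31 for Relb and 6 for Nfkbiz. The gap of 0.25 was the same for all members, so these counts depend on size of change and replicate spread. They do not show how common a pattern is.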

How the data were processed

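The deposited values are RPKM per transcript for 10 libraries, per the file headers, and the submitters' processing notes name STAR and GRCm38. No source used here gives the authors' counting, strand setting or filtering. RPKM is divided by depth, so a rise of a few abundant genes lowers the values of others. Of 79535 transcripts 77720 (97.72%) were matched by Ensembl identifier without version to GENCODE M21 names, and 1 coding transcript was kept per gene. Among the matched transcripts 38278 had the same version, so lengths used here may differ from those of the authors. Low RPKM values were whole multiples of 1 read in 100% of the values tested (tolerance 0.02 reads plus rounding), which gave the depths.

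A gene was tested if 2 or more libraries reached 1 RPKM. Counts over pathway lists at 120 h leave out genes that did so only through that group, a choice made after seeing the data. The model was limma 3.58.1 under R 4.3.3 with a mean-variance trend, on log2(RPKM + 1), fitted by group over the 10 libraries (5 residual degrees of freedom). It was tested on simulated data. The 6 comparisons below were made, and p-values were adjusted over all genes tested. The genes, lists and tests were chosen with earlier results of these data known. Named pathway genes were, per list, up to 4 called with the largest change at 120 h, up to 2 at 72 h against 40 h, and up to 2 uncalled with the highest mean. All 10 members were named, with the 2 closest genes by pattern for each. Alternatives were the pseudocount, filters, scalings, a replicate block, array weights, subsets of groups, limma voom on recovered reads, the transcript chosen and each library left out. Protein sequences were not used here, so planned comparisons of the proteins were not run.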

Additional observations from a re-analysis of the deposited data

Results flagged for a closer look

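Relb, Nfkbie and Ier3 stood out because they were called in opposite directions at 72 h and 120 h against the same untreated libraries. A higher level at 120 h than at 72 h follows from that choice, and all 10 genes were called higher in this comparison. As a description, it gave log2 differences of 2.83 for Relb (adjusted p = 1.26e-06), 1.86 for Nfkbie (adjusted p = 2.91e-06) and 1.99 for Ier3 (adjusted p = 6.74e-06), each by limma over all tested genes. Both 120 h libraries were above both 72 h libraries for each gene. The call of Relb at 72 h was lost in 4 alternatives, those without untreated replicate 1, untreated replicate 2 or 72 h replicate 1 and the one with no filter on low values.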

How the results depend on the processing

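For the comparisons of 120 h with untreated and with 72 h, all 200 member results in each kept their direction and call over 20 alternatives. Counts of all genes also stayed within 1.5 times, and 10 members were called throughout. Elsewhere 189 of 210 did so at 72 h against untreated, 176 at 72 h against 40 h, 190 at 40 h and 208 at 24 h.
At 24 h, where 0 genes were called, the counts were 2 with a pseudocount of 0.1, 3 with no filter, 6 with only the 2 groups compared, 3 without the 120 h group and 34 with array weights (2 pathway genes), and 0 to 3 with 1 library left out. At 40 h, 558 genes, 0 members and 9 pathway genes became 2335, 4 and 15 with only the 2 groups compared, 1867, 3 and 15 without the 120 h group, and 2858, 5 and 19 with array weights. Pathway genes were 3 with no filter and 5 with quantile normalization. Leaving out 1 library gave 36 to 1848 genes, 0 to 3 members and 1 to 15 pathway genes. At 72 h it gave 3550 to 7713 genes and 2 to 6 members. At 72 h against 40 h the count was 5928 genes without the 120 h group, and 2 members with no filter or with voom. Leaving out 1 library there gave 1972 to 5980 genes, 0 to 5 members and 27 to 59 pathway genes.
Differences that were not called changed sign in some settings. With 1 library left out, Rela at 24 h ran from -0.063 to 0.0113, Nfkbiz at 40 h from -0.13 to 0.15, and at 72 h Nfkb2 from -0.069 to 0.0432, Nfkbia from -0.20 to 0.10 and Nfkbiz from -0.48 to 0.12. At 72 h against 40 h Relb ran from -0.21 to 0.0297 and Nfkbiz from -0.49 to 0.11, and Nfkb1 was -0.0339 with the transcript of highest mean RPKM. The log2 5′ to 3′ ratio of Nfkb1 at 40 h ran from -0.094 to 0.0350. The cause was not tested.
With the replicate number as a block the calls of members were unchanged in number, 0, 0, 4, 10, 4 and 10 in the 6 comparisons, and those of all genes were 0, 697, 6434, 10774, 4435 and 10413. Correlations of the deviations of same-numbered libraries were positive for all 10 pairs of groups, from 0.034 to 0.639, and 8 exceeded 0.1. This is a hint of shared numbers, but the block stayed an alternative because not every pair exceeded 0.1 and the labels give no shared source. With 2 libraries per group the precision was limited, most of all, among the 10 members, for Nfkbiz (SE 0.35).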
